A study of Mus musculus with 4 samples.

Results

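Chemokine ligands are the small secreted proteins that steer migrating cells, and their transcripts were followed here in mouse adipocyte precursor cells. The ligands were taken by symbol, as every gene whose name is Ccl, Cxcl, Cx3cl or Xcl followed by a number and at most 1 letter. This gave 37 of the 20207 genes in the tables. RNA sequencing had been done on 4 libraries, 2 from wild-type littermates (WT 1 and WT 2) and 2 from mice labelled Per3 KO (Per3 KO 1 and 2, shortened to KO 1 and KO 2), in which the circadian clock gene Per3 is named as knocked out. All mice were young, of the C57BL/6 strain and sampled at ZT2, shortly after the lights came on. Precursors were sorted straight from adipose tissue as cells bearing Sca1 and lacking CD45 and CD31. The labels give neither the fat depot, the design of the Per3 allele nor whether each library stands for its own mouse. The p-values therefore reflect the spread among these samples, which may be technical. Values are listed throughout in the order WT 1, WT 2, KO 1, KO 2.

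A chemokine binds receptors of the G protein-coupled family on leukocytes and other cells, which then move up its gradient. The 2 large families, CC and CXC, are told apart by the spacing of the first cysteines of the protein. Inflammatory members are switched on by cytokines and bacterial products through NF-kB and interferon signalling, whereas homeostatic members are made constantly and position cells in tissues. In adipose tissue Ccl2 is known for drawing in the monocytes that become macrophages, and stromal fibroblasts are a recognised source of it. Many atypical receptors bind chemokines without classical signalling, and some of them take chemokines out of the surroundings.

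The libraries held between 27950724 and 64964300 gene reads. Per3 itself was not depleted under the label Per3 KO, at 4.66 and 10.5 CPM (193 and 768 reads) against 3.16 and 7.31 CPM (121 and 170 reads) in WT. The groups overlapped in CPM, so these libraries are called KO-labelled below. The tables give 1 count per gene, in which a partial deletion may not show. Ly6a, which encodes Sca1, was abundant (CPM of 2133 to 14274, highest in WT 2). The 6 markers of precursors and fibroblasts were present in all libraries, at a summed RPKM of 8994 to 14001. RPKM is the deposited level, scaled by transcript length and library total, and CPM is the count per 1000000 reads of the library after scaling of the totals. Ptprc, which encodes CD45, had 0, 5, 4 and 50 reads and Pecam1, which encodes CD31, 79, 206, 279 and 378 reads in the same order of libraries. WT 2 stood apart from the other libraries in several ligands, so the fold changes of the ligands described one by one are given with and without it.

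Promoter sequences are shown for 5 ligands, since Cxcl1, Cxcl2 and Cxcl3 are close neighbours that carry the same short box, Cxcl10 carries a pair of related boxes, and the CC ligand Ccl8 carries none. They are the 160 bases before the gene start, 5′ to 3′ along the gene, from RefSeq on build GRCm38.p6, whereas the deposited tables use mm9. Capitals mark matches to the NF-kB consensus on either strand (overlapping matches run together) and to TATAAA.
Cxcl1, chr5:90891085-90891244, plus strand: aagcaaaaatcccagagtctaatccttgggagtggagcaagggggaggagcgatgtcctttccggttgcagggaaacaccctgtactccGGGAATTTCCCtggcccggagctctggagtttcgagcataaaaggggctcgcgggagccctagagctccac
Cxcl2, chr5:90903739-90903898, plus strand: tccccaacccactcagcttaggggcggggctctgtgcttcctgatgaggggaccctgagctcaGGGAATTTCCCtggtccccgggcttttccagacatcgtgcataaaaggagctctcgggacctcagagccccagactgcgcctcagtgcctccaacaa
Cxcl3, chr5:90785941-90786100, plus strand: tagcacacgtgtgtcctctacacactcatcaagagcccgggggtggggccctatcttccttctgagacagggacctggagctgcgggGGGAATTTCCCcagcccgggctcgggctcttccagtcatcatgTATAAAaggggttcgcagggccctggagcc
Cxcl10, chr5:92348890-92349049, minus strand: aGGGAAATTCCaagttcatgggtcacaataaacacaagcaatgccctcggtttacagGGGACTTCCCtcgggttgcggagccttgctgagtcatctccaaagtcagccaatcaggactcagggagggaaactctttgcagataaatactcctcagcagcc
Ccl8, chr11:82115025-82115184, plus strand: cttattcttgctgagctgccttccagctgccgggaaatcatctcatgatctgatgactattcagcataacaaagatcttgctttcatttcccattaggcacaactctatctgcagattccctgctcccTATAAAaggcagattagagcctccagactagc

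In Cxcl1, Cxcl2 and Cxcl3 the NF-kB consensus was matched on both strands by the same 11 bases, GGGAATTTCCC, beginning at -71, -97 and -73 from the gene start. Cxcl10 had matches at -159 and -103. Ccl8 had TATAAA at -32 and no NF-kB match in this window, which says only that those letters are not there. RefSeq promoters were at hand for 25 of the 37 ligands. Those of Ccl2, Ccl7, Ccl11, Ccl5, Cxcl5 and Cxcl16 were missing, so these abundant ligands were not searched. The consensus lay within 250 bases before the start in 6 of the 25 searched, namely Cxcl1, Cxcl2, Cxcl3, Cxcl10, Ccl9 and Ccl20. It lay there in 3.92% of the 32536 promoters of all genes. Here and below the measures are unlike. A ligand counted if any of its promoters (28 distinct ones for the 25) held the letters, whereas the percentage is of single promoters. The E-box letters CACGTG, bound by clock factors, were found in 1 of the 25, Cxcl3 at -155, and in 6.04% of all promoters. TATAAA was present in 9 of the 25 and 12.3% of all promoters, TGANTCA in 3 and 6.73%, and AGGTCA in 10 and 14.0%. Both strands were searched for each, and a match is a description of the letters, not of a bound factor.

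Ccl2 and Ccl7 were among the most abundant transcripts in each library, and Cxcl1 in 3 of the 4. Ccl2 ranked 2nd, 2nd, 2nd and 3rd by RPKM among all 20207 genes in the order just given. Ccl7 ranked 12th, 3rd, 7th and 12th and Cxcl1 6th, 109th, 3rd and 14th. The RPKM of Ccl2 was 4651, 12260, 7033 and 3750. Ccl7, a neighbour of Ccl2 that also attracts monocytes, had RPKM values of 2517, 7608, 3505 and 2200. Cxcl1, a neutrophil attractant, had 2958, 611.8, 5086 and 2076 and so was at its lowest in WT 2, where Ccl2 and Ccl7 were at their highest. In RNA from a sorted population, fewer cells making a ligand and less RNA per cell cannot be told apart.

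By mean RPKM over the 4 libraries the order went on with the interferon-induced Cxcl10 (471.5), the eosinophil attractant Ccl11 (282.0), Cxcl2 (145.7) and Ccl8 (93.4). Next came Cxcl12 (43.0), Cxcl3 (19.4), Cxcl5 (16.4), Cxcl9 (16.2) and Cxcl13 (16.1). Ccl27a (6.94), Ccl5 (6.85) and Cxcl16 (6.85) closed the set of 15 ligands with a mean RPKM of at least 5. The ranges of each pair of neighbours in this order overlapped across libraries. Within each library, 6 of the 14 steps held in all 4, namely Ccl2 over Ccl7, Cxcl1 over Cxcl10, Cxcl10 over Ccl11, Ccl11 over Cxcl2, Ccl8 over Cxcl12 and Cxcl13 over Ccl27a. The other 8 were turned in at least 1 library. The plot of RPKM by library shows the steps.

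**Figure D1:**
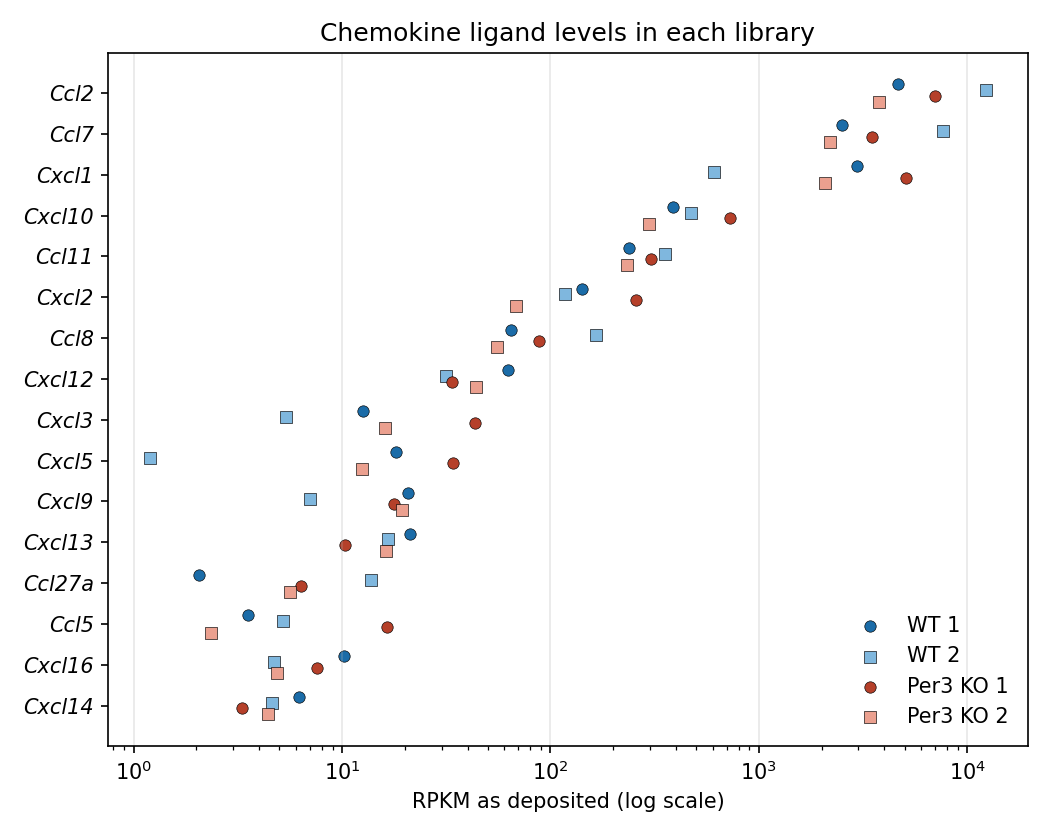
Level of each chemokine ligand averaging 5 RPKM or more, and of Cxcl14, in RPKM as deposited on a log axis, with 1 point per library (WT blue, Per3 KO-labelled red, replicate 1 as circles and replicate 2 as squares). Ccl2 reached 12260 RPKM in WT 2, and Cxcl5 was at its lowest, 1.199 RPKM, in the same library.

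Ligand transcripts made up 1.77%, 3.65%, 2.75% and 1.44% of all gene reads. The 95% Wilson intervals were 1.77 to 1.78%, 3.64 to 3.66%, 2.74 to 2.75% and 1.44 to 1.44%, and cover counting error only. The groups overlapped, at 2.71 ± 1.33% in WT and 2.09 ± 0.926% in the KO-labelled pair (SD, n = 2 per group, exact permutation test, two-sided, p = 0.667). With 2 libraries against 2, the smallest p this test can give is 0.3333.

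Most of this RNA came from Ccl2, Ccl7 and Cxcl1, which together held 91.1%, 94.4%, 91.0% and 91.1% of the summed ligand RPKM. The proportions differed in WT 2. Cxcl1 held 26.6%, 2.82%, 29.6% and 23.6% of that sum. Accordingly the RPKM of Ccl2 was 1.57, 20.0, 1.38 and 1.81 times that of Cxcl1 in these libraries, whereas Ccl2 over Ccl7 stayed between 1.61 and 2.01. WT 1 thus resembled both KO-labelled libraries in the proportion of Ccl2 to Cxcl1, and the odd library belonged to WT.

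**Figure D2:**
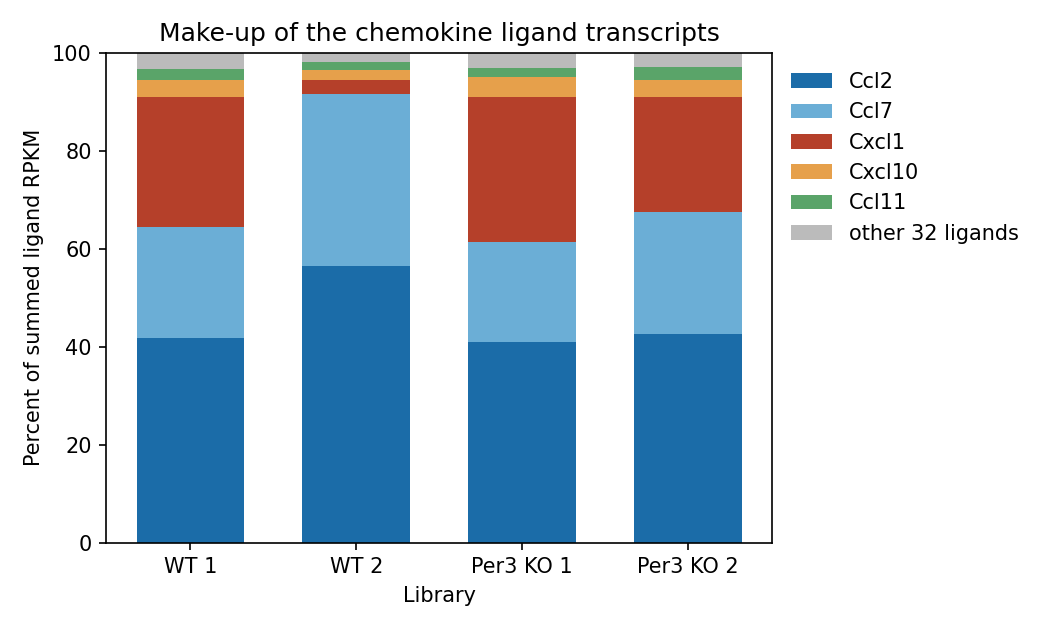
Percent of the summed RPKM of all 37 ligands held by each of the 5 most abundant and by the other 32 together, in each library. Cxcl1 held 23.6 to 29.6% in 3 libraries and 2.82% in WT 2.

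The ligand genes lie in groups along the chromosomes, and members of a group differed widely in level. With a maximum of 500 kb between starts, 29 of the 37 ligands fell into 7 groups and 8 stood alone. On chromosome 11 (mm9, 81849079 to 81993314, 144.2 kb) the order is Ccl2, Ccl7, Ccl11, Ccl12, Ccl8 and Ccl1. Of these, 4 had a mean RPKM of at least 5, while Ccl12, which lies between Ccl11 and Ccl8, and Ccl1 at the end had 0 reads in all 4 libraries. On chromosome 5 (91188325 to 91334964, 146.6 kb) the order is Cxcl5, Cxcl3, Cxcl15, Cxcl1 and Cxcl2. All but Cxcl15, which had 1 read in WT 1 and 0 in the others, reached a mean of 5 RPKM. A further group on chromosome 11 (83339281 to 83478185, 138.9 kb) holds Ccl5, Ccl9, Ccl6, Ccl3 and Ccl4, of which Ccl5 alone reached that level. On chromosome 8 (97269584 to 97335935) the CCR4 ligands Ccl22 and Ccl17 had 0 reads in all libraries. Between them lies Cx3cl1, or fractalkine, which had 0, 6, 0 and 109 reads.

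Between groups, no ligand passed the test. Of 12494 genes tested with edgeR's quasi-likelihood test and Benjamini-Hochberg adjustment, 0 (0%) had an adjusted p under 0.05, and none of the 21 ligands tested did, each with an adjusted p of 1.00. Without adjustment, 257 genes (2.06%) had a p under 0.05, among them 1 ligand, Cxcl3. DESeq2 called 19 of 14146 genes (0.134%) and limma on log2(RPKM + 0.5) called 1 of 8290 (0.0121%), with no ligand among them. The log2 fold change was positive in 8 ligands and negative in 13, with a median of -0.47, beside 50.6% positive and a median of 0.01 over all genes tested. Without WT 2 it was positive in 18 of 24 ligands then tested, with a median of 0.30 beside 0.09 over all genes. The share of all genes that were positive in that fit was not computed, so this count has no background beside it. The common biological coefficient of variation was 0.742.

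In CPM, 1 ligand, Cxcl3, was higher in KO 1 and KO 2 than in either WT library, and 3 were lower, namely Cxcl12, Cxcl13 and Cxcl14. Over all genes tested 14.6% lay above and 11.5% below, together 26%, and 4 of 21 ligands is near that share. The other 17 ligands overlapped. In RPKM as deposited 3 ligands were apart, since Cxcl12 overlapped.

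**Figure D3:**
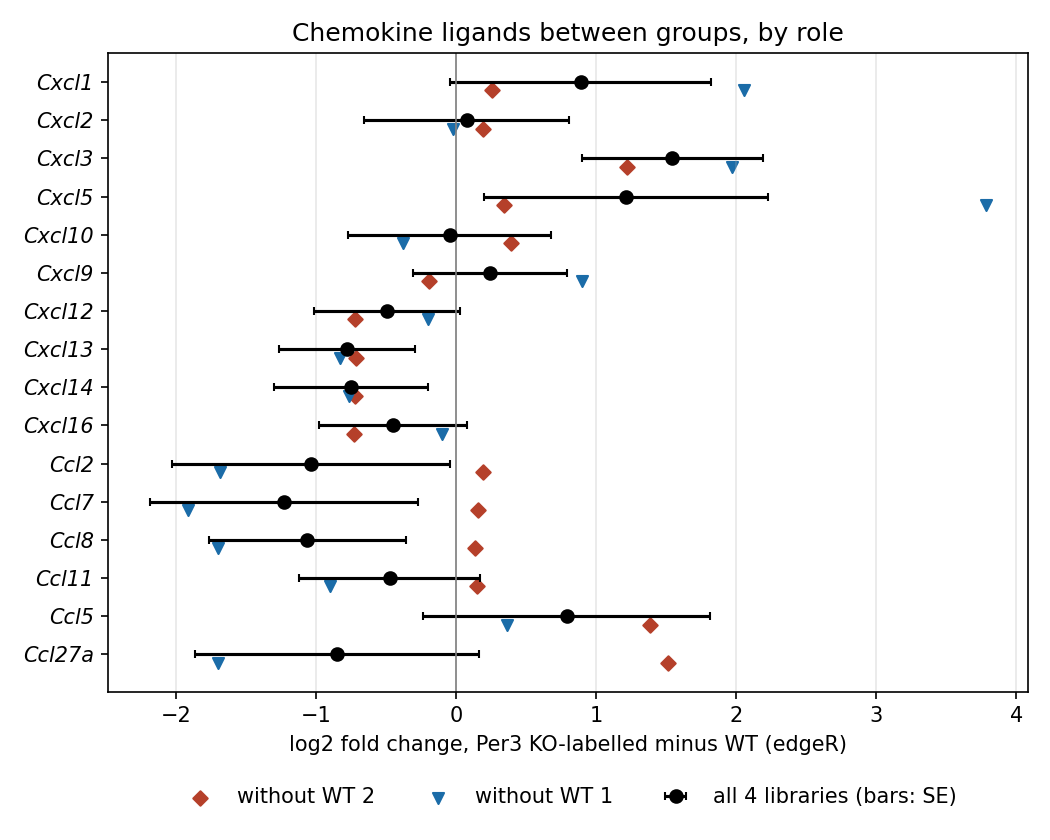
Log2 fold change of KO-labelled over WT libraries from edgeR for the ligands named with full values, ordered by role, as black points with the standard error as bars, and with WT 1 (blue) or WT 2 (red) left out. Ccl2, Ccl7, Ccl8, Ccl11, Ccl27a, Cxcl9 and Cxcl10 change sides when WT 2 is left out. Cxcl12, Cxcl13, Cxcl14 and Cxcl16 stay below 0.

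The neutrophil attractants that carry a Glu-Leu-Arg motif and act on the receptor CXCR2 were positive in 4 of 4 tested, with a median of 1.05. Cxcl3 had 22.6 and 13.5 CPM in WT and 78.1 and 27.4 CPM in the KO-labelled libraries. The groups did not overlap, but KO 2 was close to WT 1 and the difference rested largely on KO 1. Its means were 18.1 ± 6.47 and 52.8 ± 35.8 CPM (SD, n = 2 each), and its log2 fold change was 1.54 ± 0.64 (SE, edgeR unadjusted p = 0.0458, adjusted p = 1.00), or 1.22 without WT 2 and 0.59 without KO 1. Over 14 alternatives the adjusted p ranged from 0.199 to 1.00.

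Cxcl1 had 4965, 1431, 8543 and 3304 CPM. WT 1 lay between the KO-labelled libraries and WT 2 below them all. The log2 fold change was 0.89 ± 0.93 (SE), 0.26 without WT 2 and 0.05 without KO 1. Cxcl5, made in many stromal and epithelial cells, had 53.0, 4.90, 99.7 and 34.9 CPM in the same order. WT 2 was again the lowest by far, and WT 1 lay between the KO-labelled libraries. Its log2 fold change of 1.21 ± 1.02 (SE) was 0.34 without WT 2 and 3.78 without WT 1. Cxcl2 had 271, 314, 492 and 125 CPM, so that the KO-labelled libraries enclosed both WT libraries. Its log2 fold change was 0.08 ± 0.73 (SE), was 0.19 without WT 2 and turned to -1.25 without KO 1. The order of these ligands from high to low library was thus not shared by all: KO 1 was the highest for each of Cxcl1, Cxcl2, Cxcl3 and Cxcl5, while the lowest was WT 2 for 3 of them and KO 2 for Cxcl2.

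The ligands of CXCR3, a receptor of activated T cells and natural killer cells, are induced by interferons. Cxcl10 had 728, 1243, 1375 and 532 CPM, and the KO-labelled libraries enclosed both WT libraries. The log2 fold change was -0.05 ± 0.73 (SE). It turned positive with plain library totals (0.18), with limma on RPKM (0.12), without WT 2 (0.39) and without KO 2 (0.48). It was -0.38 without WT 1 and -0.92 without KO 1. Cxcl9 had 107, 50.1, 91.2 and 94.9 CPM, with WT 2 the lowest and WT 1 the highest. Its log2 fold change was 0.24 ± 0.55 (SE) and -0.20 without WT 2. Cxcl11, the third ligand of CXCR3, had 56 reads in WT 1 and 0 in the other libraries and was not tested. Cxcl10 and Cxcl11 overlap Art3, which had 77 to 660 reads, and whether reads were assigned by strand is not given in the sources used here.

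Homeostatic CXC ligands were negative in 3 of 3 tested, with a median of -0.75. Cxcl12, the ligand of CXCR4 that holds stem and progenitor cells in their niches, had 206, 143, 111 and 137 CPM. WT 2 and KO 2 were close together. The means were 175 ± 44.3 and 124 ± 18.5 CPM (SD, n = 2 each), with a log2 fold change of -0.49 ± 0.52 (SE), -0.73 without WT 2 and -0.20 without WT 1. Cxcl13, which attracts B cells, had 43.8, 47.4, 21.3 and 31.8 CPM. In scaled CPM the WT libraries lay close together and above both KO-labelled libraries. In RPKM as deposited they were at 21.3 and 16.5 against 10.3 and 16.3, so that WT 2 and KO 2 were nearly equal. Its mean CPM values were 45.6 ± 2.54 and 26.6 ± 7.44. The log2 fold change, -0.78 ± 0.49 (SE), was -0.72 without WT 2 and ranged from -1.10 to -0.54 with a library left out. Cxcl14, a chemokine of epithelia and fibroblasts, had 20.1, 20.7, 10.7 and 13.5 CPM. Here too the WT libraries were close to each other and above the KO-labelled ones in CPM. In RPKM they were at 6.20 and 4.59 against 3.30 and 4.40. Its means were 20.4 ± 0.435 and 12.1 ± 1.98 CPM. The log2 fold change, -0.75 ± 0.55 (SE), was -0.72 without WT 2 and ranged from -0.93 to -0.61. The edgeR unadjusted p was 0.376 for Cxcl12, 0.151 for Cxcl13 and 0.210 for Cxcl14, and the adjusted p 1.00 for each. Over the alternatives the adjusted p was 0.87 to 1.00 for Cxcl12, 0.446 to 1.00 for Cxcl13 and 0.557 to 1.00 for Cxcl14. Cxcl17, the fourth of the list, had 0, 0, 10 and 5.99 reads.

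Cxcl16, which is made as a membrane-anchored protein and binds CXCR6, had 44.1, 28.6, 33.1 and 20.1 CPM. The groups overlapped, with a log2 fold change of -0.45 ± 0.53 (SE). It was -0.10 without WT 1, -0.73 without WT 2, -0.86 without KO 1 and -0.14 without KO 2. Cxcl16 overlaps Zmynd15, which had 115 reads in WT 1 and under 4 in each of the others.

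The CC ligands grouped here as monocyte attractants were negative in 3 of 3 tested, with a median of -1.06. Each of the 3 turned positive without WT 2. Ccl2 had 6643, 24413, 10058 and 5080 CPM. WT 2 was the highest and the other WT library lay between the KO-labelled ones. For Ccl2 the log2 fold change was -1.04 ± 0.99 (SE), and 0.19 without WT 2. Ccl7 followed the same order, at 3556, 14975, 4955 and 2948 CPM, and went from -1.23 ± 0.96 (SE) to 0.15 without WT 2. Ccl8 had 58.2, 208, 79.7 and 47.6 CPM and went from -1.06 ± 0.70 (SE) to 0.13. In all of these ligands the libraries ranked WT 2, KO 1, WT 1 and KO 2 from high to low. Ccl11, or eotaxin, which attracts eosinophils through CCR3, ranked the libraries in the same way, at 452, 936, 579 and 420 CPM, with a log2 fold change of -0.47 ± 0.65 (SE) and 0.15 without WT 2. The other eotaxins, Ccl24 and Ccl26, had 0 reads in all libraries.

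The CC ligands Ccl3, Ccl4, Ccl5, Ccl6 and Ccl9 are mostly products of leukocytes, and they were low here. Ccl5 was the most abundant, at 3.34, 6.79, 15.4 and 2.09 CPM. KO 1 was the highest and KO 2 the lowest. A log2 fold change of 0.79 ± 1.02 (SE) was 1.38 without WT 2 and became -1.31 without KO 1. Ccl3, Ccl4, Ccl6 and Ccl9 each stayed under 200 reads in every library. Ccl6 had 0, 190, 39 and 70 reads, Ccl3 had 0, 54, 0 and 59, Ccl4 had 0, 37, 35 and 67, and Ccl9 had 31.0, 16.8, 12.9 and 134.6. For Ccl3, Ccl4 and Ccl6 WT 1 was at 0, where up to 3 reads, or 0.0809 per 1000000, could be missed.

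Among lymphoid and mucosal CC ligands, Ccl27a, a skin chemokine, had 2.11, 19.6, 6.54 and 5.46 CPM and Ccl25, known from thymus and gut, 1.88, 10.02, 3.43 and 4.98 CPM. In both, the WT libraries were the lowest and the highest and enclosed the KO-labelled libraries. Log2 fold changes were -0.85 ± 1.02 for Ccl27a and -0.50 ± 1.01 for Ccl25 (SE), turning to 1.51 and 1.17 without WT 2. Ccl27a overlaps Il11ra1, which had 4797 to 19190 reads, so its level is uncertain. Ccl19, Ccl21a, Ccl21b and Ccl21c, which guide cells into lymph nodes through CCR7, had 0 reads in all libraries. The last 2 overlap in the tables.

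In all, 10 of the 37 ligands had 0 reads in all 4 libraries, which allows up to 0.0462 to 0.107 per 1000000 reads depending on the library. This limit covers counting error only. It may not hold for genes that share reads, such as the overlapping Ccl21b and Ccl21c, since the treatment of reads matching several genes is not given. A further 3, Ccl20 (a ligand of CCR6), Cxcl15 and the lymphocyte product Xcl1, stayed under 10 reads in every library. Of the ligands, 21 passed edgeR's filter on low counts and were tested, and 16 were not.

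The libraries of a group also differed from each other. Among the 15 ligands with a mean RPKM of at least 5, all 6 CC ligands were higher in WT 2 than in WT 1, whereas 8 of 9 CXC ligands were lower in RPKM. In scaled CPM all 6 CC ligands were again higher, and 6 of the 9 CXC ligands lower. Cxcl5 was 15.1 times and Cxcl1 4.83 times higher in RPKM in WT 1 than in WT 2, while Ccl27a was 6.67 times, Ccl7 3.02 times and Ccl2 2.64 times higher in WT 2. In the KO-labelled group, 12 of the 15 were higher in KO 1 than in KO 2, all 6 CC ligands among them. Ccl5 was 6.996 times, Cxcl2 3.73 times and Cxcl1 2.45 times higher in KO 1. The 3 exceptions were Cxcl9, Cxcl12 and Cxcl13. The fold between libraries was larger within WT than within the KO-labelled group for 10 of the 15. These are values of single libraries and were not tested. The same counts were not made over all genes, so they cannot be called particular to the ligands.

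**Figure D4:**
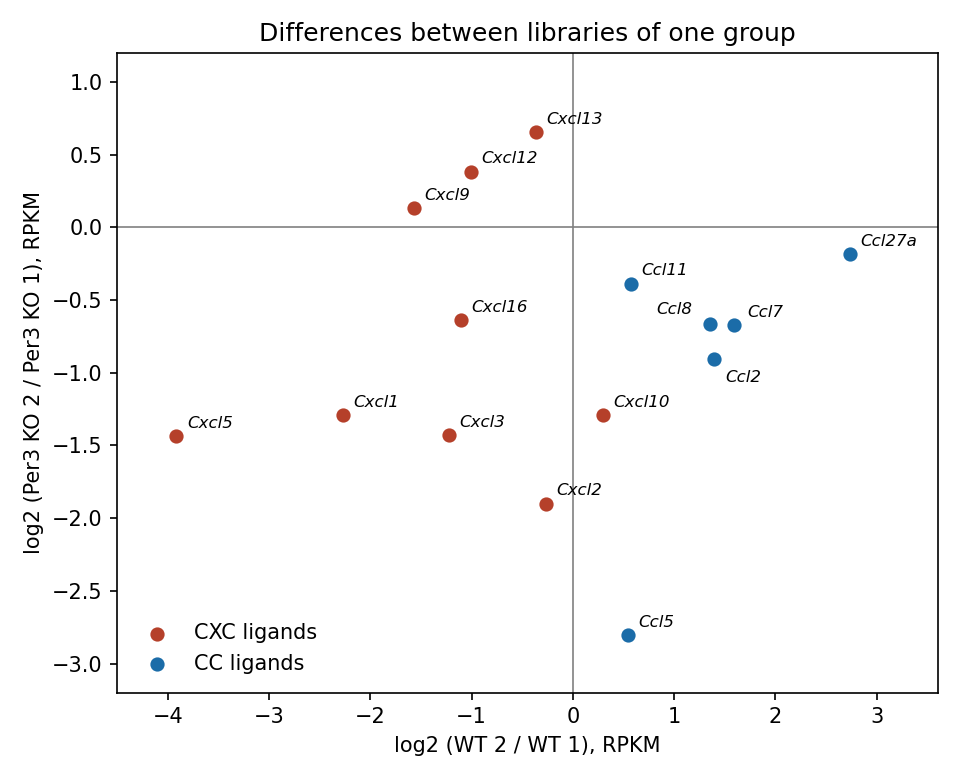
Differences between the libraries of a group for the 15 ligands with a mean RPKM of at least 5, as log2 RPKM ratios of WT 2 over WT 1 (x axis) and of KO 2 over KO 1 (y axis). All 6 CC ligands (blue) lie to the right of 0, and 8 of 9 CXC ligands (red) to the left, with Cxcl10 the exception.

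The classical chemokine receptors that could be looked up were close to absent from these libraries. Of 18 listed, 16 were in the tables and 4 were tested, and the summed RPKM of those 16 was 0.519 to 0.826 per library. Cxcr2, the receptor named above for Cxcl1, Cxcl2, Cxcl3 and Cxcl5, and Cxcr1 were not found under these symbols. Their levels are therefore not known. Xcr1, the receptor of Xcl1, was the highest by mean RPKM, with 58.9 to 134.4 reads, followed by Ccr4 with 17.9 to 52.8 and Ccr7 with 1.98 to 46. Cxcr4, the receptor of Cxcl12, had 0, 1.00, 7 and 0 reads, and Ccr2, the receptor of Ccl2, had 2 reads in WT 2 alone. Ccr2 and Cxcr4 were chosen after their values were seen. Of the 4 tested with edgeR, 1 was positive and 3 negative, and none had a p under 0.05 before or after adjustment.

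Atypical receptors, in contrast, were present, with a summed RPKM of 100.9 to 422.7. Cxcr7, now called Ackr3, which takes up Cxcl12, had 1393, 133, 1229 and 1503 CPM. WT 2 was the low library and the other 3 lay close together. Its log2 fold change was 0.84 ± 1.02 (SE), -0.02 without WT 2 and 3.36 without WT 1. Darc, now Ackr1, which binds many inflammatory chemokines, had 88.5, 211, 84.1 and 106 CPM, highest in WT 2, with a log2 fold change of -0.66 ± 0.59 (SE) and 0.11 without WT 2. Ccbp2, now Ackr2, a scavenger of inflammatory CC ligands, had 28.6, 32.3, 18.5 and 77.6 CPM, with a log2 fold change of 0.66 ± 0.69 (SE) that became -0.72 without KO 2. Of 5 tested, 4 were positive and 1 negative, with a median of 0.66, and none had a p under 0.05 before or after adjustment (edgeR).

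Chemokine-like genes outside the symbol rule varied in the same libraries. Mif, a cytokine that can bind CXCR2, had 83.1, 11.5, 144 and 67.6 CPM and was thus low in WT 2. Cklf had 1.23, 28.5, 8.21 and 5.70 CPM, and the platelet chemokine Pf4 1.98, 76, 2.99 and 40 reads. Both were highest in WT 2. Ppbp, another platelet chemokine, had 0 reads. Of the 3 tested with edgeR, 1 was positive and 2 negative, and none had a p under 0.05 before or after adjustment.

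Among 24 receptors and regulators that act upstream of inflammatory chemokines, none passed edgeR's test after adjustment. Without adjustment 1, Il6ra, had a p under 0.05, beside 2.06% of all genes tested. Log2 fold changes were positive for 8 and negative for 16, with a median of -0.30 beside 0.01 over all genes. KO-labelled libraries lay below both WT libraries for 7 and above for 1 (Nfkb1), where 11.5% and 14.6% of all genes did so. Nfkbia, which encodes the NF-kB inhibitor and is itself an NF-kB target, had 520, 712, 229 and 361 CPM. The groups did not overlap, with means of 616 ± 136 and 295 ± 93.3 CPM (SD, n = 2 each) and a log2 fold change of -1.06 ± 0.60 (SE, edgeR adjusted p = 1.00), or -0.81 without WT 2. Zfp36, which promotes decay of chemokine and cytokine mRNAs, had 1097, 872, 1086 and 1152 CPM, and Irf1, an interferon-induced transcription factor, 366, 318, 360 and 513 CPM. Both overlapped between groups, with log2 fold changes of 0.19 ± 0.62 and 0.35 ± 0.57 (SE). With a library left out these ranged from 0.03 (without WT 2) to 0.37 (without WT 1) for Zfp36 and from 0.07 (without KO 2) to 0.57 (without KO 1) for Irf1.

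Leukocytes also make chemokines, so their markers were set beside the ligands. The 12 leukocyte markers had a summed RPKM of 7.11, 19.9, 16.8 and 8.83, with 3, 3, 4 and 5 of them at 0 reads. WT 2 was the highest and KO 1 the next, as for Ccl2, while the other 2 libraries were in the opposite order. Of the 7 tested with edgeR, none passed after adjustment and 2, Cd52 and S100a8, had an unadjusted p under 0.05. Over all genes tested the unadjusted share was 2.06%. Cd52 had 28, 126, 0 and 0 reads and passed with DESeq2 (adjusted p = 0.0172), and S100a8 had 10, 35, 0 and 0 reads. Csf1r and Cd74, in contrast, were higher in CPM in KO 1 and KO 2 than in either WT library. Over all genes tested, 14.6% lay above and 11.5% below in this way. The part of these markers in the ligand levels was not tested. Ccl2 had an RPKM of 3750 to 12260 in the same libraries, a level that does not tell which cells made it. The markers with the highest mean RPKM were Cd68 (115, 391, 263 and 164 reads), Cd74 (118, 110, 466 and 538) and Lyz2 (26.0, 184, 327 and 0). Csf1r, another macrophage gene, had 345, 110, 472 and 949 reads, while Emr1 had 12, 0, 0 and 0 and Itgam 9, 0, 3 and 0. Csf1r, Emr1 and Itgam were chosen after their values were seen. Endothelial markers summed to 9.42 to 21.8 RPKM, of which Tek, singled out after its values were seen, held 7.72 to 20.6. For platelet markers the sum was 1.66 to 3.23 and for mesothelial markers 0.634 to 3.08.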

How the data were processed

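The authors deposited, per the file headers, an estimated count of reads per gene for each library, not normalised, and RPKM, which scales reads by transcript length and library total. The tables also hold a Z score of RPKM and an RMS-normalised ratio, made by the authors; neither score nor ratio was used. The submitters' processing notes name STAR 2.4.0, Cufflinks, Cuffdiff 2.2.1 and mm9, with no roles. How reads matching several genes, or the strand, were treated is not given in the sources used here.

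Groups and replicates follow the sample titles, and genes were joined by symbol. Counts were rounded, filtered with filterByExpr (minimum count 10, minimum total 15), scaled by TMM and tested across all 12494 genes with edgeR 4.0.16 (glmQLFit and glmQLFTest on genotype alone, two-sided; R 4.3.3), with a Benjamini-Hochberg threshold of 0.05. A standard error is the log2 fold change over the square root of F. The pipeline was tested on simulated data with large changes, as a check of the code only. No reading of the calls rests on that check. Depth was 27950724 to 64964300 reads. Alternatives were DESeq2 1.42.0, limma 3.58.1 on log2(RPKM + pseudocount), other scalings and filters, a block for the replicate number, and fits without each library in turn.

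Values in every library are given for ligands with a mean RPKM of at least 5, or with at least 50 reads in a library and groups that do not overlap. Of other lists, up to 3 members with the highest mean RPKM are named, apart from exceptions stated with the values. Members and lists were chosen with earlier results of these data known.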

Additional observations from a re-analysis of the deposited data

How the results depend on the processing

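No ligand passed in any of the 14 alternatives, and 7 of the 21 tested kept their sign in each for which it was computed (all but the crossed block described below): Cxcl1, Cxcl3, Cxcl5, Cxcl12, Cxcl13, Cxcl14 and Cxcl16. Over all genes the count called went from 0 to 4 without a filter, 19 with DESeq2, 1 with limma at each pseudocount (0.1, 0.5 and 1) and 1 to 4 with a library left out; the cause was not tested. Pairing by replicate number comes from the titles alone, and deviations of same-numbered libraries correlated at -0.142. The replicate block gave 1 call over all genes and none among the ligands, and a crossed block, chosen after seeing the data, gave 2 and none. Under the replicate block the log2 fold change turned to 1.10 for Ccl6, -0.0016 for Ccl9 and -0.23 for Cxcl2.

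Limma on RPKM moved the median of all genes to 0.31, 0.27 and 0.23 at pseudocounts of 0.1, 0.5 and 1, and plain library totals, added after seeing the data, to 0.21. Below those medians, signs turned for Ccl25 (0.18, 0.12 and 0.077 at the 3 pseudocounts), Ccl27a (0.16, 0.10 and 0.058) and Cxcl10 (0.12 at each, and 0.18 with plain totals).

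With a library left out, 14 ligands changed sign, 10 of them without WT 2. Their ranges were -0.90 to 0.15 (Ccl11), -1.69 to 0.19 (Ccl2), -1.25 to 1.17 (Ccl25), -1.70 to 1.51 (Ccl27a), -1.31 to 1.60 (Ccl5), -1.92 to 0.15 (Ccl7), -1.70 to 0.13 (Ccl8), -1.29 to 1.25 (Ccl9), -0.92 to 0.48 (Cxcl10), -1.25 to 0.75 (Cxcl2) and -0.20 to 0.90 (Cxcl9). The ranges of Ccl3 (-8.31 to 7.39), Ccl4 (-0.84 to 8.49) and Ccl6 (-3.09 to 8.60) include fits against libraries at 0 and are no bounds. Ligands with groups apart numbered 4, and 10 to 16 with a library left out, where fewer libraries have to be apart. The share over all genes was not computed with a library left out, so those counts say nothing particular to the ligands. Depth limits the ligands under about 100 reads.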
